A study of Mus musculus with 4 samples.

Results

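Lymphatic endothelial cells of mouse gingiva were chosen by measured transcripts in single-cell RNA sequencing libraries, and 56 cells met the rule among 31150 kept cells, which is 0.180% of them. A barcode was kept with at least 200 genes and at most 20% mitochondrial UMIs (unique molecular identifiers, 1 per captured transcript). A kept cell counted as lymphatic with at least 1 UMI of Pecam1, Cdh5 or Flt4, at least 3 UMIs of Prox1, Mmrn1 and Ccl21a together, no Ptprc and fewer than 5 UMIs of Krt5 and Krt14. The levels of these genes chose the cells and are given below as a description. The study gave experimental periodontitis (PD) to transgenic mice by tying silk around the maxillary second molar and adding Porphyromonas gingivalis, and took gingiva 14 days later. The libraries were Itga9-Lyz2-cKO PD (2 chosen cells), Itga9-Lyz2-cHet PD (35), Itga9-Lyz2-cKO control (7) and Itga9-Lyz2-cHet control (12). Each group was 1 library, and neither the ages nor the number of mice pooled in it is given in the labels. Each genotype name couples Itga9 with Lyz2, a gene of macrophages and neutrophils whose promoter is used to drive Cre in those cells and not in endothelium. The labels do not spell out the alleles, and no library used here is named as from unmodified mice.

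Lymphatic endothelial cells line the vessels that drain fluid and leukocytes from tissue to lymph nodes. Prox1 is the transcription factor that sets their identity, Flt4 encodes the VEGF-C receptor that drives their growth, Ccl21a encodes the chemokine that draws CCR7-bearing dendritic cells into the vessel, and Mmrn1 encodes a secreted multimerin. Itga9 encodes the integrin alpha9 subunit, which pairs with beta1, binds the EIIIA form of fibronectin and tenascin-C, and is needed for the leaflets of lymphatic valves. In the mm10 build Itga9 lies on the plus strand at chr9:118606690-118901003, Prox1 on the minus strand at chr1:190118035-190170714, Mmrn1 on the plus strand at chr6:60924976-60989378 and Flt4 on the plus strand at chr11:49609263-49652739.

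The chosen cells did not all carry the lymphatic label equally well. Levels are given as CPM, the UMIs of a gene per 1000000 UMIs summed over the chosen cells of a library. Mmrn1 stood at 5185 CPM in cKO PD, 2008 in cHet PD, 65.4 in cKO control and 1241 in cHet control. Ccl21a stood at 3024, 845.5, 0 and 1669.9 CPM in the same order of libraries. The cKO control cells entered the rule almost wholly through Prox1, at 402 CPM, against 1296 in cKO PD, 789 in cHet PD and 961 in cHet control.

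Genes outside the rule showed the same split. Lyve1, the hyaluronan receptor of initial lymphatics, had 2592 CPM in cKO PD, 2699 in cHet PD, 28.02 in cKO control and 414 in cHet control. Pdpn, podoplanin, had 1080.1 CPM in cKO PD, 829 in cHet PD, 0 in cKO control and 44.3 in cHet control. Reln, which lymphatic endothelium secretes, had 648, 593.5, 0 and 414 CPM in the same libraries. A count of 0 UMIs is read against a floor of 3 UMIs, which is 28.02 CPM in cKO control. This floor is not the limit of an exact interval, which lies higher. At least 1 of Lyve1, Pdpn and Reln was found in 2 of 2 cKO PD cells, 33 of 35 cHet PD cells, 2 of 7 cKO control cells and 6 of 12 cHet control cells.

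Flt1 and Plvap mark blood endothelium. At least 1 of them was found in 6 of 7 cKO control and 8 of 12 cHet control cells. They were not limited to the controls, with 15 of 35 cHet PD cells and 0 of 2 cKO PD cells carrying either. Of those 15 cHet PD cells 14 also carried Lyve1, Pdpn or Reln, and 1 did not. Plvap stood at 0 CPM in cKO PD, 325 in cHet PD, 672.5 in cKO control and 680 in cHet control. Blood endothelial cells held 655, 479, 886 and 863 CPM of Plvap in the same order. Flt1 stood at 0 CPM in cKO PD, 138 in cHet PD, 1541 in cKO control and 1034.5 in cHet control, where blood endothelial cells held 1752, 2313, 1937.5 and 2364 CPM. Of the 7 cKO control cells 4 carried Flt1 or Plvap without Lyve1, Pdpn or Reln, as did 5 of the 12 cHet control cells, and 1 cell in each control library carried none of these genes. In cHet control, the cells with Flt1 or Plvap and without Lyve1, Pdpn or Reln each held only 1 of the rule's genes Prox1, Mmrn1 and Ccl21a and gave 60.1% of the cHet control UMIs. The data of cKO control therefore go against the lymphatic label, so the cells of all 4 libraries are called chosen cells below. Results for the cHet pair are given for all chosen cells and for those with 2 or 3 of the rule's genes, which number 2 in cKO PD, 32 in cHet PD, 3 in cKO control and 7 in cHet control.

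**Figure D1:**
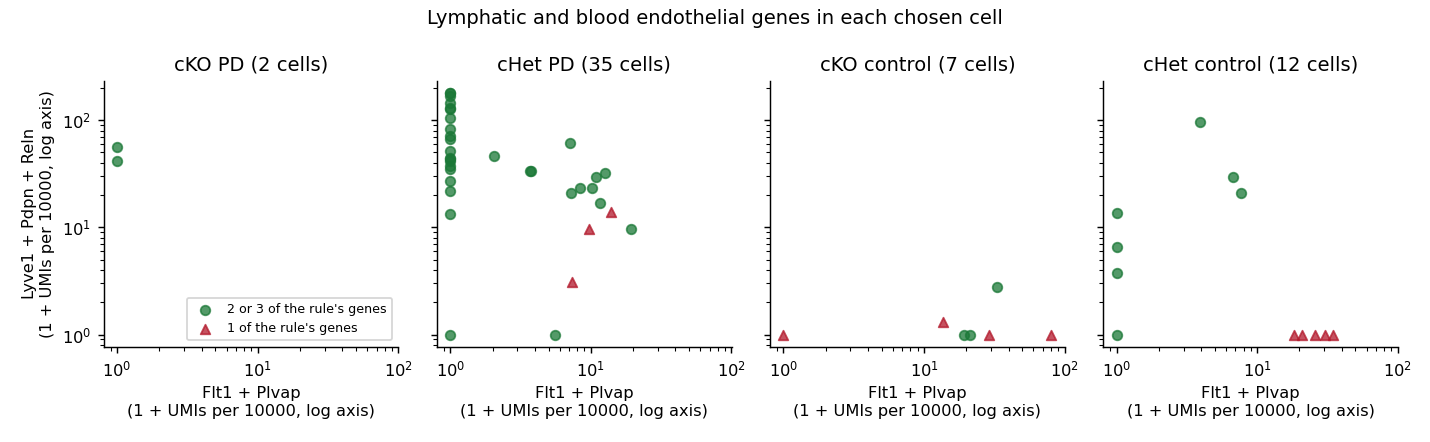
Each point is 1 chosen cell, with Flt1 plus Plvap on the x axis and Lyve1 plus Pdpn plus Reln on the y axis, both as 1 plus UMIs per 10000 UMIs of the cell on log axes, in 1 panel per library. Circles held 2 or 3 of Prox1, Mmrn1 and Ccl21a and triangles held 1. The cHet PD and cKO PD cells lie high on the y axis, with 2 of the 35 cHet PD cells at its foot, while the 7 cKO control cells and the 5 cHet control triangles lie low on it.

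Depth differed as well. The chosen cells summed to 4629 UMIs in cKO PD, 123009 in cHet PD, 107067 in cKO control and 67667 in cHet control, with medians of 2314.5, 2309, 11200 and 4061 UMIs per cell. Barcodes began at 500 UMIs in the PD libraries and at 1501 in the controls, and 1 cKO PD and 9 cHet PD cells lay under the higher of these floors. Of 84 kept cells with at least 3 marker UMIs, 13 had no endothelial UMI, 1 carried Ptprc and 14 carried keratin. Just inside the threshold lay 9 cells with 3 marker UMIs, and just outside it lay 15 cells with 2 (6 in cKO PD, 1 in cHet PD, 5 in cKO control and 3 in cHet control). Of 33854 barcodes 530 occurred in more than 1 library, and 0 of these were chosen cells.

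Cells meeting the rule were most numerous in the cHet PD library, and their order in the other libraries depended on cells that go against the label. They made up 0.0303% of kept cells in cKO PD (2 of 6595; 95% exact binomial interval 0.00367 to 0.110%), 0.390% in cHet PD (35 of 8967; 0.272 to 0.542%), 0.0912% in cKO control (7 of 7673; 0.0367 to 0.188%) and 0.152% in cHet control (12 of 7915; 0.0784 to 0.265%). The intervals of cKO PD and cHet PD did not overlap, and those of the controls did. All intervals here cover counting error only, since 1 library per group leaves no spread between mice.

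With PD the share of chosen cells was 2.57 times that in control among cHet libraries (exact conditional interval 1.30 to 5.45), and 4.04 times (1.75 to 10.8) for cells with 2 or 3 rule genes. Among cKO libraries the same ratio was 0.332 (0.0337 to 1.75), and 0.776 (0.0648 to 6.77) with 2 or 3 rule genes, and both intervals hold 1. The 3 cKO control cells with 2 or 3 rule genes all carried Flt1 and Plvap and had 0 UMIs of Ccl21a, Pdpn and Reln. The stricter choice therefore leaves cells that go against the label in the cKO ratios. Blood endothelial cells, taken with at least 2 UMIs of Pecam1 and Cdh5 and none of the lymphatic genes, were 6.67 times more frequent in cHet PD than in cHet control (5.29 to 8.51) and 2.41 times in cKO PD than in cKO control (2 to 2.91). Within the endothelium the chosen cells made up 5.34% in cHet PD against 12.8% in cHet control (ratio 0.419, 0.212 to 0.886), and 0.565% in cKO PD against 3.95% in cKO control (ratio 0.143, 0.0145 to 0.750). With 2 or 3 rule genes these shares were 4.91% against 7.87% (ratio 0.624, 0.271 to 1.68) in the cHet pair and 0.565% against 1.73% (ratio 0.326, 0.0272 to 2.84) in the cKO pair, which were not separable from 1.

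Between genotypes, the share of chosen cells in cKO PD was 0.0777 times that in cHet PD (0.00905 to 0.302), and 0.302 times (0.121 to 0.661) when 2 marker UMIs sufficed (8 against 36 cells), while blood endothelial cells stood at 0.772 times (0.675 to 0.881). In the controls the cKO to cHet ratio of the share of kept cells was 0.602 (0.201 to 1.66), which was not separable from 1 at this depth. Blood endothelial cells stood at 2.14 times there (1.63 to 2.82). Within the endothelium the cKO to cHet ratio was 0.310 (0.103 to 0.854) in the controls and 0.106 (0.0123 to 0.412) with PD. With 2 or 3 rule genes these were 0.221 (0.0368 to 0.966) and 0.115 (0.0134 to 0.451). The cKO control cells counted here go against the lymphatic label. Tissue digestion and the piece of gingiva taken set how many vessels reach a library, and their part in these ratios cannot be told apart from genotype or PD.

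**Figure D2:**
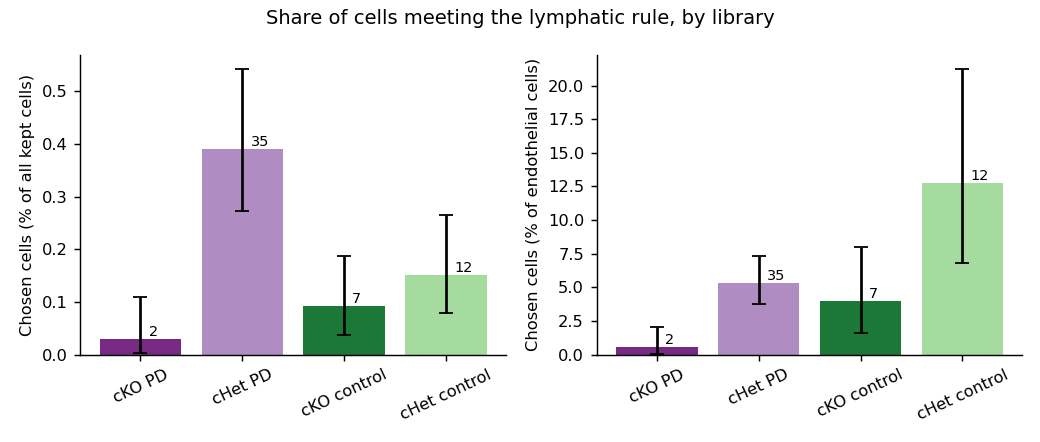
Bars give chosen cells as a percentage of all kept cells (left) and of chosen plus blood endothelial cells (right) in each library, with the number of cells beside each bar and 95% exact binomial intervals. The cHet PD library has the highest share of kept cells, 0.390%, and cHet control has the highest share of endothelium, 12.8%. The bars count the 1 cHet PD, 4 cKO control and 5 cHet control cells with Flt1 or Plvap and without Lyve1, Pdpn or Reln.

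Itga9 transcripts were found in the chosen cells of every library but cKO PD. There were 0 UMIs in the 2 cKO PD cells, with an exact Poisson interval up to 797 CPM and a floor of 3 UMIs at 648 CPM. In cHet PD there were 31 UMIs (252 CPM, exact Poisson interval 171 to 358). There were 25 UMIs (233.5 CPM, 151 to 345) in cKO control and 9 (133 CPM, 60.8 to 252.5) in cHet control. The intervals of the 3 libraries with UMIs overlap. A UMI of Itga9 was found in 0 of 2, 16 of 35, 5 of 7 and 5 of 12 cells in that order, and in 0 of 1, 6 of 32, 1 of 7 and 1 of 12 after each cell was thinned to 1000 UMIs. The 5 cKO control cells with an Itga9 UMI had 0 UMIs of Ccl21a and Reln and held Flt1 at 1624 CPM. In cHet control 4 of the 9 Itga9 UMIs lay in cells with only 1 rule gene, all of which carried Flt1 and Plvap. In epithelial cells, whose basal layer is known to carry this integrin, an Itga9 UMI occurred in 0.286 to 1.03% of cells at median depths of 2849.5 to 5674 UMIs.

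With PD, Itga9 in the cHet chosen cells was 1.90 times its control level (0.880 to 4.53), and 1.47 times (interval from 0.568) with 2 or 3 rule genes, neither separable from 1. In cHet blood endothelial cells it stood at 36.3 CPM with PD against 80.3 in control, a ratio of 0.452 (0.299 to 0.693). In the chosen cells of cKO control, which go against the lymphatic label, Itga9 was 1.76 times the cHet control level (0.793 to 4.27), not separable from 1. The 3 prime UMIs of this assay do not show whether the Itga9 alleles were recombined.

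Against blood endothelium, the summed Itga9 level was higher in 3 of 4 libraries, at 252 against 36.3 CPM in cHet PD, 233.5 against 120 in cKO control and 133 against 80.3 in cHet control. The ratios were 6.94 (4.36 to 10.8), 1.945 (1.205 to 3.03) and 1.656 (0.7055 to 3.48), and the interval of cHet control holds 1. The cKO control cells go against the lymphatic label. In cKO PD Itga9 stood at 0 against 83.2 CPM, under the floor of 648 CPM, so that library shows no direction. The fit over the 4 libraries gave a log2 difference of 1.28 with adjusted p = 0.42 (edgeR quasi-likelihood test with the library as block, Benjamini-Hochberg over 4782 genes; 0.117 to 1.0 over 14 alternatives). Itgb1, the partner subunit, stood at 432, 1146, 532 and 783 CPM in chosen cells against 884.5, 902, 736 and 838 in blood endothelial cells from cKO PD to cHet control, with a log2 difference of -0.38 (edgeR adjusted p = 1). Foxc2, a transcription factor of lymphatic valves, had only 0, 1, 5 and 3 UMIs in the chosen cells. Cldn11, of the valve and collecting vessel list, had 6 UMIs in 1 cHet control cell, which held 29 of Prox1, 3 of Itga9 and 0 of Lyve1. Another cHet control cell held 2 of Cldn11 and 2 of Foxc2. These counts were too few to set valve cells apart as a group. The list of valve and collecting vessel genes held 16 genes tested against blood endothelium, of which 0 passed the edgeR threshold in either direction. Over all 4782 genes only 0.418% were higher and 1.05% lower, so 0 of 16 does not set this list apart.

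**Figure D3:**
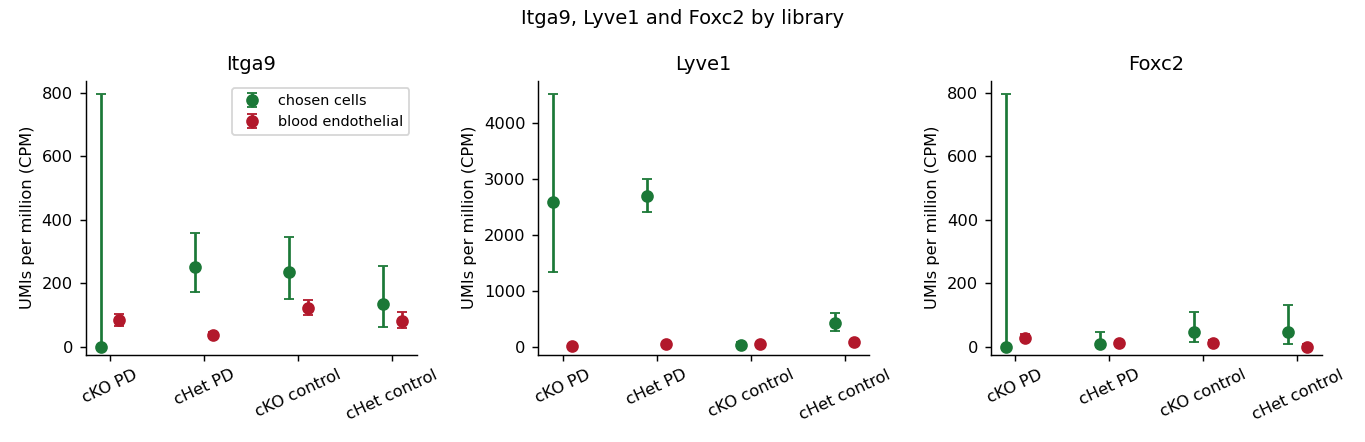
Points give CPM of Itga9, Lyve1 and Foxc2 in the summed chosen (green) and blood endothelial (red) cells of each library, with 95% exact Poisson intervals. Itga9 is higher in chosen than blood endothelial cells in cHet PD, at 252 against 36.3 CPM, and Lyve1 separates the 2 cell types in the PD libraries but not in cKO control.

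The contrast of chosen with blood endothelial cells is the only one with more than 1 library on each side, and it includes the cKO control cells that go against the lymphatic label. Of 4782 genes tested, 20 were higher in chosen cells (0.418%) and 50 were lower (1.05%) at an adjusted p under 0.05. At an unadjusted p under 0.05 there were 108 higher and 273 lower. The list of lymphatic identity genes outside the rule had 13 genes tested, of which 5 were higher and 0 lower (Lyve1, Stab1, Tbx1, Fgl2 and Clca3a1), with a median log2 difference of 1.74 against -0.12 over all tested genes.

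Fgl2, which encodes a secreted fibrinogen-like protein that dampens T cell responses, was the leading higher gene. It stood at 5617, 1439, 168 and 473 CPM in chosen cells against 39.0, 11.5, 26.3 and 18.5 in blood endothelial cells from cKO PD to cHet control. The log2 difference was 5.12 (edgeR adjusted p = 9.26e-05, higher in 4 of 4 libraries). The ranges of the cell types did not overlap, and the smallest gap was in cKO control, whose chosen cells also had the least Lyve1.

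Clca3a1, of the chloride channel accessory family, stood at 864, 219.5, 318 and 310.3 CPM in chosen cells against 16.8, 12.7, 58.3 and 26.8 in blood endothelial cells (log2 3.48, edgeR adjusted p = 0.000201). Tbx1, a T-box factor that acts upstream of Flt4 in lymphatic development, stood at 216, 48.8, 46.7 and 88.7 CPM against 3.16, 1.15, 13.7 and 14.4 (log2 3.10, edgeR adjusted p = 0.0125). Igfbp5, a binder of insulin-like growth factors, stood at 2160.3, 967, 420.3 and 1655 CPM against 53.7, 49.6, 185 and 243 (log2 3, edgeR adjusted p = 0.00331), although 97.8% of its cKO control UMIs came from 1 cell and only 3 of 12 cHet control cells carried it. The summed level of each of these genes was higher in 4 of 4 libraries. In cKO PD that rested on 4 UMIs of Clca3a1, 1 of Tbx1 and 10 of Igfbp5, each gene in 1 cell.

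The other genes that the naming rule gave in this direction were Gpm6a, a neuronal membrane glycoprotein (log2 2.81), the guidance molecule Ntn1 (2.64), the ribonuclease Rnase4 (2.54), ceruloplasmin Cp (2.48), the GATA cofactor Zfpm2 (2.43), the adhesion receptor Adgrg3 (2.41), Wipf3 (2.32) and the lipopolysaccharide binder Lbp (2.26), with edgeR adjusted p between 0.00331 and 0.0459. Lyve1 was higher in 3 of 4 libraries, not in cKO control (log2 3.75, edgeR adjusted p = 0.0213). Stab1, a scavenger receptor, was higher in 4 of 4 libraries (log2 2.09, edgeR adjusted p = 0.0196), with 1 UMI in cKO PD. The cKO PD levels of Gpm6a, Rnase4, Zfpm2, Adgrg3 and Wipf3 rested on 2 UMIs each and that of Ntn1 on 3.

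Genes lower in chosen cells included fat uptake genes of capillary endothelium. Lpl, lipoprotein lipase, stood at 0, 8.13, 18.7 and 163 CPM in chosen cells against 568, 1148.5, 1517 and 2403 in blood endothelial cells (log2 -5.31, edgeR adjusted p = 0.000201). Its cKO PD blood level lay under the floor of 648 CPM, so that library does not show Lpl as lower. All 11 Lpl UMIs of the cHet control chosen cells came from 1 cell. Cd36, the fatty acid translocase, stood at 0, 16.3, 56.0 and 177 CPM against 753, 1957, 813 and 1109.8 (log2 -4.24, edgeR adjusted p = 0.00116). Of 20 tested genes in the list of lipid and fluid transport 5 were lower (Cd36, Fabp4, Fabp5, Gpihbp1 and Lpl) and 0 higher, against 1.05% lower and 0.418% higher over all tested genes.

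Timp4, C1qtnf9, Meox2, Cytl1, Lnx1, Notch3 and Pcdh19 had 0 UMIs in all 56 chosen cells. Against a floor of 3 UMIs over the pooled chosen cells, Timp4, an inhibitor of matrix proteases, was at least 14.7-fold lower than in blood endothelial cells, and Meox2, a homeobox factor of vessels, was at least 13.5-fold lower. C1qtnf9 was at least 12.6-fold lower, Cytl1 at least 12.8-fold, Lnx1 at least 7.60-fold, Notch3 at least 6.23-fold and Pcdh19 at least 5.61-fold lower. In cKO PD the blood levels of all 7 lay under the floor of 648 CPM, and that of Cytl1 also lay under the 44.3 CPM floor of cHet control, so these libraries do not show them as lower.

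Part of the lower genes belong to other cell types. Rgs5, a pericyte gene, stood at 0, 8.13, 0 and 73.9 CPM in chosen cells against 1169.9, 1338, 1296 and 3292.5 in blood endothelial cells (log2 -6.66, edgeR adjusted p = 7.34e-05). Krt4 and Calm4, genes of stratified epithelium, were lower by log2 -5.01 and -4.48 (edgeR adjusted p = 0.00084 and 0.000603). The marker sums moved the same way: 7 pericyte and smooth muscle markers summed to 0, 24.4, 46.7 and 103 CPM in chosen cells against 1446, 1459.9, 1947 and 3873 in blood endothelial cells, and 7 epithelial markers to 648, 658.5, 140.1 and 665 CPM against 1485, 1932, 1412 and 2998. Notch3, with 0 UMIs in chosen cells, is also among the 7 pericyte and smooth muscle markers. Cytl1 was found in only 1.61 to 12.35% of the blood endothelial cells of a library. The part of other cell types in the lower genes was not tested.

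The number of calls rested on single libraries. Without cKO PD, whose sum is 2 cells, 1 gene was higher and 11 lower, and without cHet PD 5 and 13. Without cHet control 3 were higher and 17 lower, and without cKO control, the library whose cells lack Ccl21a, 41 were higher and 41 lower. Of 24 named genes 22 passed without cKO control, and 4 (Clca3a1, Rgs5, Lpl and Calm4) passed under every alternative that was run. Fgl2 missed the threshold only without cKO PD (edgeR adjusted p = 0.0771), and Lyve1 missed it in 4 of 14 alternatives (adjusted p up to 0.559).

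**Figure D4:**
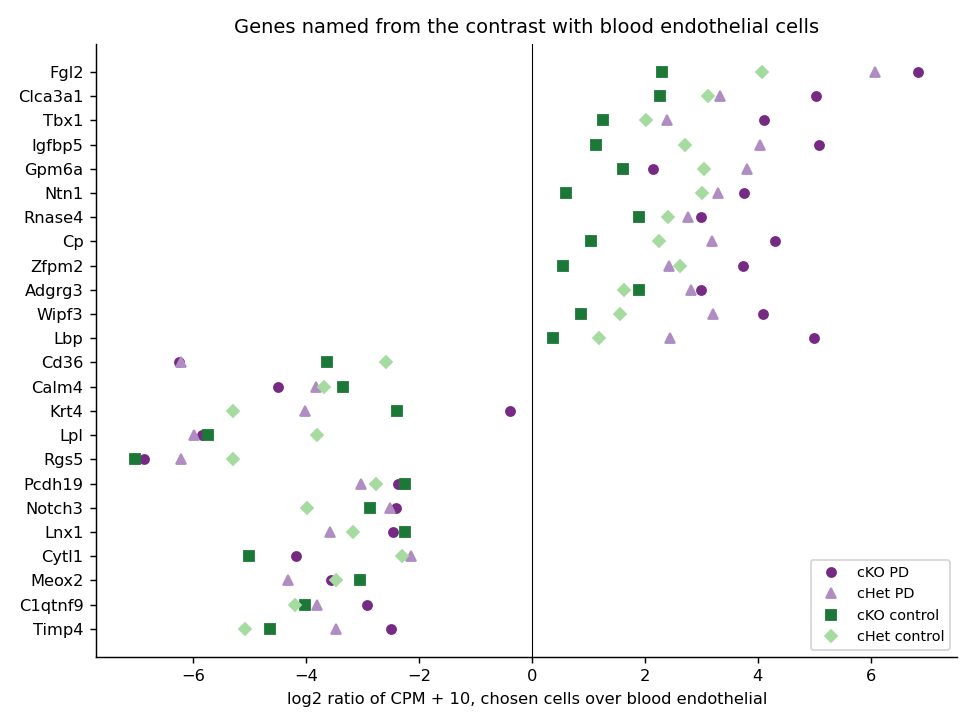
Each point is the log2 ratio of CPM plus 10, chosen over blood endothelial cells, of a named gene in 1 library. The 12 higher genes lie right of 0 and the 12 lower genes left of 0 in each of the 4 libraries, and cKO control lies nearest to 0 for most of the higher genes. For 10 of the 12 lower genes the cKO PD point rests on 0 UMIs and a blood level under the floor of 648 CPM, and shows no difference. Among the higher genes the cKO PD point of Tbx1 rests on 1 UMI, and those of Gpm6a, Rnase4, Zfpm2, Adgrg3 and Wipf3 on 2 each.

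Basement membrane genes, Ccl2, Tnc and Plau were higher in cHet PD than in cHet control chosen cells. Blood endothelial genes were lower over all chosen cells, where 60.1% of the cHet control UMIs come from the 5 cells with blood markers only. Of 1279 genes with at least 20 UMIs in the higher library, 309 were at least 2-fold higher with PD (24.2%) and 180 at least 2-fold lower (14.1%), with 10 CPM added and a 95% interval of the ratio that excluded 1. This is a description of 2 libraries without a test, and TMM scaling would shift every log2 fold by 0.115. In the 32 and 7 cells with 2 or 3 rule genes, 206 of 897 genes were higher and 53 lower. Of the 309 genes 154 were called higher there too, and of the 180 genes 34 were called lower there too. The cHet control sum is 26997 UMIs in these cells, against 67667 before, so fewer genes could reach 20 UMIs there.

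The genes that the naming rule gave as higher with PD all stayed called in those cells. Ccl2, the monocyte chemokine, had 159 UMIs (1293 CPM) in cHet PD against 0 in cHet control, at least 29.2-fold higher (at least 11.4-fold with 2 or 3 rule genes), and was found in 13 of 35 against 0 of 12 cells, with 47.8% of its UMIs from 1 cell. Tnc, tenascin-C, a ligand of integrin alpha9 beta1, stood at 732 CPM in cHet PD against 14.8 in cHet control (49.5-fold, interval from 8.66; 21.4-fold with 2 or 3 rule genes), in 11 of 35 against 1 of 12 cells. Plau, the urokinase protease, stood at 675 CPM against 14.8 (45.7-fold, interval from 7.97; 18.8-fold), in 19 of 35 against 1 of 12 cells. Plau was the most widely found of the 8. The cHet control levels of Tnc and Plau rested on 1 UMI each, under the floor of 44.3 CPM, and Plau had 1 UMI there with 2 or 3 rule genes as well. Their folds therefore cannot be ranked against the bounds given for genes with 0 UMIs.

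F2rl1, the protease-activated receptor PAR2, had 60 UMIs in cHet PD against 0 in cHet control (at least 11-fold), and Gap43, a growth cone protein, had 40 against 0 (at least 7.33-fold), each in 12 of 35 cells. Ccl7, another monocyte chemokine, had 35 UMIs against 0 (at least 6.42-fold), 62.9% of them in 1 cell. Slc39a14, a zinc and iron importer, had 33 against 0 (at least 6.05-fold). Dcn, decorin, had 70 against 0 (at least 12.8-fold). With 2 or 3 rule genes the lower bounds were 4.75-fold for F2rl1, 3.17-fold for Gap43, 2.22-fold for Ccl7, 2.53-fold for Slc39a14 and 5.46-fold for Dcn. In the list of chemokines and scavenging receptors 4 of 7 measured genes were at least 1.5-fold higher and 3 lower (2 higher and 1 lower of 5 with 2 or 3 rule genes, median log2 fold 0.05). The same rule gave 708 higher and 455 lower of all 2066 measured genes (566 and 308 of 1450 with 2 or 3 rule genes). Dcn is a fibroblast gene, and the 7 fibroblast markers summed to 797 CPM in cHet PD chosen cells against 14.8 in cHet control, found in 15 of 35 and 1 of 12 cells, with Lum and Dpt at 0 in both. The part of fibroblast RNA was not tested.

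In cHet blood endothelial cells Ccl2 stood at 233 CPM with PD against 86.5 in control, Tnc at 65.2 against 12.4 and Plau at 197 against 28.8. F2rl1 stood at 10.9 CPM against 16.5 and Slc39a14 at 58.2 against 76.2 there. Whether chosen and blood endothelial cells differed in their PD change was not tested.

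The genes named as lower with PD were Mal, Mgp, Cd300lg, Aqp1, Plcb1, Clu, Apoe and Ly6c1. Aqp1, the water channel of blood capillaries, stood at 48.8 CPM in cHet PD against 2468 in cHet control, and Ly6c1, a surface antigen of blood endothelium, at 97.6 against 2438. In cells with 2 or 3 rule genes 0 of the 8 reached 20 UMIs and were called. Aqp1 stood at 52.8 against 333 CPM there (inverse ratio 6.32, 2.01 to 21.6), Cd300lg had 0 against 5 UMIs, and Ly6c1 turned to 8 UMIs in cHet PD against 0 in cHet control. The 12 blood endothelial markers summed to 2723 CPM in cHet PD chosen cells against 9266 in cHet control.

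Matrix genes were higher with PD in either choice of cells. In the basement membrane and anchoring list 10 of 17 measured genes were at least 1.5-fold higher in cHet PD and 2 lower (median log2 fold 0.76, with 10 CPM added), against 708 higher and 455 lower of 2066 measured genes (median 0.18). With 2 or 3 rule genes 12 of 14 were higher and 0 lower (median 2.13), against 566 and 308 of 1450 (median 0.29). In blood endothelial cells 12 of 22 were higher and 2 lower (median 0.60), against 1538 and 1455 of 8570 measured genes (median 0.005). Fibroblast markers were higher in the cHet PD chosen cells as well (797 against 14.8 CPM), and 97.1% of the cHet PD UMIs of Col15a1 came from 1 cell. The part of fibroblast RNA in the matrix genes was not tested.

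Col4a1, a chain of the collagen IV network, stood at 2423 CPM in cHet PD against 369.5 in cHet control (6.56-fold, 4.36 to 10.3; 9.94-fold with 2 or 3 rule genes) and was found in 30 of 35 against 10 of 12 cells. Lamc1, the laminin gamma1 chain, stood at 1423 CPM against 236.5 (6.02-fold, 3.60 to 10.8; 5.46-fold), and Lamb1, laminin beta1, at 585 against 88.7 (6.60-fold, 2.89 to 18.6; 7.84-fold). Sparc, a collagen-binding glycoprotein, depended on the choice: 2228 CPM in cHet PD against 2793 in cHet control over all chosen cells, and 2340 against 556 (4.21-fold) with 2 or 3 rule genes. Ltbp4 (610 against 783 CPM; 642 against 629.7) and Sparcl1 (114 against 1153 CPM; 14 UMIs against 0) turned direction as well.

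Ligands of integrin alpha9 beta1 and its fibronectin partners were also higher. Of 7 measured genes 5 were higher and 2 lower (median log2 fold 1.06), against 708 and 455 of all 2066 measured genes (median 0.185). With 2 or 3 rule genes 5 of 6 were higher and 1 lower (median 2.71), against 566 and 308 of 1450 (median 0.290). Blood endothelial cells moved the same way, with 10 of 15 higher and 1 lower (median 1.023), against 1538 and 1455 of 8570 (median 0.005). Fn1, fibronectin, stood at 2788 CPM in cHet PD against 192 in cHet control (14.5-fold, 8.38 to 27.5; 6.25-fold with 2 or 3 rule genes), in 25 of 35 against 3 of 12 cells. Thbs1, thrombospondin-1, stood at 780.4 CPM against 369.5 (2.11-fold, 1.35 to 3.43; 2.18-fold). Tgm2, transglutaminase 2, was lower, at 138 CPM against 621, and Vcam1, a leukocyte adhesion ligand, at 65.0 against 695. Vcam1 had only 1 UMI in cHet PD and 0 in cHet control among cells with 2 or 3 rule genes.

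**Figure D5:**
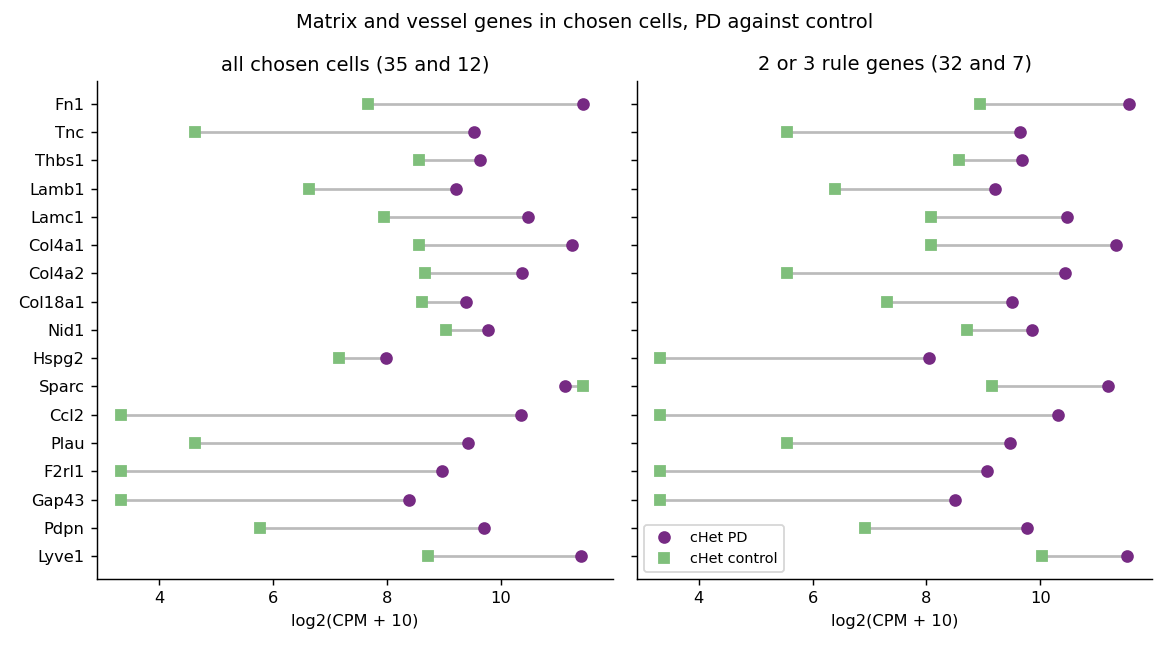
For 17 matrix and vessel genes, chosen after their values were seen, circles give log2(CPM + 10) in cHet PD chosen cells and squares in cHet control, over all chosen cells (left) and cells with 2 or 3 rule genes (right). The PD circle lies to the right for each gene but Sparc in the left panel, and for all 17 in the right panel.

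Lymphatic identity genes were mixed. Pdpn stood at 829 CPM in cHet PD against 44.3 in cHet control (18.7-fold, 6.22 to 92.2) and Lyve1 at 2699 against 414 (6.52-fold, 4.43 to 9.97). With 2 or 3 rule genes these were 7.76-fold (2.58 to 38.3) and 2.82-fold (1.91 to 4.30). Cldn5, the endothelial tight junction claudin, was lower, at 48.8 CPM in cHet PD against 1064 in cHet control (inverse ratio 21.8, 9.55 to 61.4), and was found in 4 of 35 against 12 of 12 cells. The inverse ratio of Cldn5 was 23.9 (9.90 to 69.5) with 2 or 3 rule genes. Over the list 7 of 16 were higher and 2 lower with PD (median 0.50), but 4 higher and 8 lower with 2 or 3 rule genes (median -0.53), so the direction of the list turned with the choice of cells. All measured genes gave 708 higher and 455 lower of 2066, and 566 and 308 of 1450 with 2 or 3 rule genes.

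Cell cycle genes were higher with PD in 7 of 7 measured members (median log2 fold 1.05), led by Top2a, Stmn1 and Mki67. Among all 2066 measured genes 708 were higher. Mki67 had 23 UMIs in 5 of 35 cHet PD cells, 52.2% of them from 1 cell, against 1 UMI in cHet control. With 2 or 3 rule genes 4 of 6 were higher and 0 lower, against 566 and 308 of 1450 measured genes. In blood endothelial cells 2 of 23 were higher and 6 lower (median -0.13), against 1538 and 1455 of 8570 measured genes.

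Immediate early and dissociation genes were lower with PD in 17 of 29 measured members and higher in 3 (median log2 fold -0.73; 18 lower and 3 higher of 28 with 2 or 3 rule genes, median -0.86). Over all measured genes 455 of 2066 were lower and 708 higher, and 308 and 566 of 1450 with 2 or 3 rule genes. Egr1 stood at 797 CPM in cHet PD against 3990.1 in cHet control (inverse ratio 5.01, 3.96 to 6.38), and Hspa8, a heat shock protein, at 609.7 against 2202. In blood endothelial cells 11 of 33 were higher and 6 lower (median 0.25), against 1538 and 1455 of 8570 measured genes.

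Interferon response genes showed no common direction in chosen cells, with 3 of 11 measured members higher and 5 lower with PD (median 0.40; 1 higher and 3 lower of 5 with 2 or 3 rule genes, median -0.72). The counts over all measured genes were 708 higher and 455 lower of 2066 (566 and 308 of 1450 with 2 or 3 rule genes). In blood endothelial cells 28 of 37 were higher and 3 lower (median 1.31), against 1538 and 1455 of 8570 measured genes (median 0.005). Fewer members could be measured in chosen cells, and the difference between the cell types was not tested. Rsad2 stood at 203 CPM in cHet PD against 14.8 in cHet control, with 84% of its UMIs from 1 cell.

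Adhesion genes depended on the cells taken. Icam1 stood at 439 CPM in cHet PD against 975 in cHet control over all chosen cells (inverse ratio 2.22, 1.53 to 3.24), but at 422 against 148 with 2 or 3 rule genes (2.85-fold, 1.04 to 10.9). S1pr1, the sphingosine 1-phosphate receptor, stood at 618 against 532 CPM and at 633 against 74.1 (8.55-fold, 2.28 to 71.9). The 74.1 CPM rested on 2 UMIs, fewer than the 3 UMIs taken as the floor. Icam1 was called in opposite directions by the choices, as 1 of 2 such genes.

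The cKO control and cHet control cells differed in the direction of the label check. Of 926 genes 117 were at least 2-fold higher in cKO control (12.6%) and 101 at least 2-fold lower (10.9%). TMM scaling moved all log2 folds of this pair by 0.390, and with it 242 genes were higher and 56 lower. The lower genes by the naming rule were Nts, Sema3d, Reln, Pard6g, Maf, Slc41a1, Lyve1 and Clic5. Nts, neurotensin, had 0 UMIs in cKO control against 47 in cHet control, and Sema3d, a semaphorin, 0 against 31. Of 14 measured lymphatic identity genes 10 were at least 1.5-fold lower and 0 higher (median log2 fold -1.28), against 405 lower and 345 higher of all 1648 measured genes (median -0.039). The blood endothelial markers summed to 14785 CPM against 9266. Genotype and the kind of cell taken cannot be told apart here.

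The higher genes of cKO control rested on few cells. Ccer2 (160 UMIs), Reg3g (77) and Aldh1a1 (31) each came wholly from 1 of the 7 cells, and Cyp2a5, Prkg1, Ptgs2, Tnfaip3 and Il6 took 57.9 to 96.7% of their UMIs from 1 cell. A sum of 6 nasal or glandular genes, Mup4 and Obp1a among them, was 112 CPM in the cKO control chosen cells, found in 6 of 7. It was 0 in the chosen cells of the other libraries and 7252 CPM over all kept cKO control cells. The part of such RNA in the higher genes was not tested. Tnfaip3, the inhibitor of NF-kB signalling also called A20, was found in 6 of 7 cKO control cells against 2 of 12 cHet control cells (532 against 29.6 CPM).

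The 2 cKO PD cells held 3719 and 910 UMIs. Both carried Mmrn1, Ccl21a, Lyve1, Pdpn and Reln, and neither carried Flt1 or Plvap. Their 26 Fgl2 UMIs exceeded the 24 of Mmrn1. Ptn, the growth factor pleiotrophin, had 13 UMIs (2808 CPM), 92.3% of them in 1 of the cells, against 122 CPM in cHet PD, 37.4 in cKO control and 118 in cHet control. Itga9, F2rl1, Gap43 and Ccl7 had 0 UMIs in these cells, where the floor is 648 CPM, so levels as in the other libraries were not detectable at this depth. Gene folds with cKO PD were not computed.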

How the data were processed

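Gene by barcode UMI counts of 4 libraries were deposited by the authors, and the submitters' processing notes list fastp, STARsolo 2.7.10a and the mm10 build. The labels name both BD Rhapsody and 10x Genomics as the platform. No doublet caller was run. Symbols with more than 1 identifier were summed (43 symbols, Ccl21a among them), and positions came from GENCODE M21. The members and gene lists were chosen with earlier results of these data known. Counts were summed over the cells of each type and library. Since each group was 1 library, conditions were compared by CPM and exact 95% intervals that cover counting error only. Named genes were the 8 largest folds in each direction among genes past 2-fold with at least 20 UMIs in the higher library and an interval excluding 1, found in at least 10% of the chosen cells of the higher library and at 0.5 or more of the CPM over all its kept cells. Predicted, ribosomal, mitochondrial, sex-linked and gate genes were not named, and genes printed outside this rule and the lists were chosen after their values were seen. Pairs with cKO PD (2 cells, 4629 UMIs) gave no gene folds. Sums of chosen and blood endothelial cells were tested with edgeR 4.0.16 (R 4.3.3; quasi-likelihood, TMM, library as block, adjusted p under 0.05), naming 12 genes in each direction whose sums differed in the same direction in the 4 libraries. Bias-adjusted quasi-dispersions were taken after the results of both options had been seen. On simulated data (4781 genes) 90% of 200 genes changed 4-fold were recovered, with 8 false calls. The simulation gave every gene the same fixed dispersion and a shared mean profile, and changed abundant genes only. It did not model sums in which 1 cell holds most UMIs of a gene, so these rates may not hold for the real data. DESeq2 1.42.0, other cell rules, filters, scalings and leaving out libraries were alternatives. Python 3.11.15 with numpy 2.4.6, scipy 1.17.1, pandas 2.3.3 and matplotlib 3.10.9 was used. Library totals were 21368197, 36231795, 62914870 and 58702911 UMIs from cKO PD to cHet control.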

Additional observations from a re-analysis of the deposited data

Results flagged for a closer look

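The PD to control ratio of the share of chosen cells lay below 1 in cKO libraries, at 0.332 (2 against 7 cells; interval 0.0337 to 1.75), and above 1 in cHet libraries, at 2.57 (35 against 12 cells). The cKO interval holds 1, and the 7 cKO control cells go against the lymphatic label. With 2 or 3 rule genes the cKO ratio was 0.776 (2 against 3 cells), and those 3 cKO control cells all carried Flt1 and Plvap. With 1 library in each group the difference between these ratios was not tested.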

How the results depend on the processing

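No paired analysis was possible between conditions because each group was 1 library. For chosen against blood endothelial cells (20 genes higher, 50 lower), the fit with no replicate block gave 14 higher and 33 lower. Cells with 2 or 3 rule genes gave 12 and 32, and no filter on low counts 82 and 129. DESeq2 gave 76 and 74, edgeR's default quasi-dispersions 33 and 81, and leaving out the deepest cell of each library 30 and 80, the last 2 added after the data were seen. Leaving out 1 library gave 1 to 41 higher and 11 to 41 lower. For cHet PD against cHet control (309 higher, 180 lower), cells with 2 or 3 rule genes gave 53 lower, cells without keratin UMIs 172 and 47, thinning to 1000 UMIs 43 and 13, a minimum of 50 UMIs 113 and 49, and leaving out the deepest cell 115 lower. For cKO control against cHet control (117 higher, 101 lower), cells with 2 or 3 rule genes gave 49 lower, leaving out the 5% of cells with most UMIs 54 higher, thinning 12 and 9, TMM scaling 242 and 56, and a minimum of 50 UMIs 57 and 18. Log2 folds turned for Il6 in cKO control (3.55, and -0.28 with at least 5 marker UMIs), Cyp2a5 (4.50, and -1.48 with at most 10% mitochondrial UMIs) and Ly6c1 in cHet PD (-4.51, and 3.01 with 2 or 3 rule genes). The chemokine list median was 1.10 in cHet PD and -0.038 with at most 10% mitochondrial UMIs. The causes were not tested. The 26 alternatives that gave a share ratio kept its direction. Without keratin UMIs cKO PD had 1 cell and cKO control 0, which gave no ratio with cKO control and goes against the direction of the cKO PD to control ratio. Depth limits the 2 cKO PD cells, where the floor for 0 UMIs is 648 CPM, and 1 library per group leaves the spread between mice unknown.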
